A study of Homo sapiens with 16 samples.

Results

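The effects of 2 gene deletions in HAP1 cells, each measured against its own control cells, were set against each other, with attention to genes that moved in opposite directions. HAP1 is a near-haploid, adherent human line that derives from a chronic myeloid leukaemia and carries the BCR-ABL1 fusion. Poly-A RNA was sequenced from 16 libraries in 4 groups of 4. The first experiment set cells lacking SLC30A10 beside control cells. The second set cells lacking a different gene (the second knockout) beside control cells of its own (the second control set). All cells grew in IMDM with fetal bovine serum, and no drug or metal treatment is named in the labels. In the labels, 1 line identifier covers both control sets and each deletion has a separate identifier. The number of independent clones behind each deletion is not given in the sources used here. Nothing says that the 4 libraries of a group came from separate cultures, so p-values measure only the spread between these samples, which may be technical.

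All 16 libraries and all 15569 tested genes entered the comparison. The quantity of interest is the difference of the effects: the log2 fold change of the SLC30A10 knockout against its own control, minus that of the second knockout against its own control. It can equally be written as the distance between both knockout sets minus the distance between both control sets, so a gene can reach it through either. A gene is called opposite when each effect passed an adjusted p of 0.05 by itself (edgeR quasi-likelihood test, Benjamini-Hochberg over all tested genes) and the effects had different signs. Of the tested genes, 591 met that rule.

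SLC30A10 is a plasma membrane exporter of manganese. Several of the gene groups that follow belong to the amino acid response, in which shortage of an amino acid or stress in the endoplasmic reticulum or mitochondria leads to translation of the transcription factor ATF4. ATF4 binds a short response element and switches on genes of amino acid uptake, of serine, glycine and asparagine synthesis and of tRNA charging. Other groups encode ribosomal proteins, whose mRNAs are usually regulated together, and proteins of the extracellular matrix and of cell contacts, which set how adherent cells attach.

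Library totals were even, between 16058856 and 16648151 counts. At that depth a gene with 3 counts had 0.181 to 0.187 CPM, that is, counts for every 1000000 in the scaled library. SLC30A10 itself had 3 to 11 counts in its knockout and 6 to 9 in its control and was not tested, so its RNA does not check the labels. BCR had 317 to 399 counts and ABL1 202 to 336 in every library. The leukocyte markers PTPRC, CD34 and CD33 reached at most 2, 9 and 3 counts, HBG1 and HBG2 were at 0 in all libraries, and the epithelial keratin KRT18 had 546 to 863 counts. Of markers of fibroblasts, COL1A1 had 481 to 699 counts and THY1 6 to 69, while COL1A2 and PDGFRB reached at most 4 and 7. Among markers of epithelial cells, KRT8 had 145 to 168 counts in the SLC30A10 knockout, 104 to 140 in its control, 41 to 48 in the second knockout and 94 to 127 in its control. EPCAM had 4 to 5, 11 to 26, 11 to 18 and 7 to 13 counts in the same order, and CDH1 at most 5. The part of these shifts in the results below was not tested, and in bulk RNA fewer cells of a type and less RNA per cell cannot be told apart. Levels of single genes are given below as CPM in the order of replicates 1 to 4.

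The 591 opposite genes were 3.8% of those tested, of which 324 (2.08%) rose in the SLC30A10 knockout and fell in the second knockout and 267 (1.71%) did the reverse. Each effect alone called far more genes, 41.4% for SLC30A10 and 13.7% for the second knockout, and 1217 genes (7.82%) were called in both. The libraries of knockout and control did not overlap in either experiment for 417 of the 591 (2.68% of all tested genes). Most of the opposite changes were small. The smaller of the 2 absolute log2 changes had a median of 0.29, and 67 genes changed by at least 2-fold in both experiments, 35 of the first kind and 32 of the second. At the edge of the rule, TRNP1 was just inside with an adjusted p of 0.0497 in the second knockout, and TMEM44 was just outside with 0.0506 (edgeR quasi-likelihood, Benjamini-Hochberg).

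**Figure D1:**
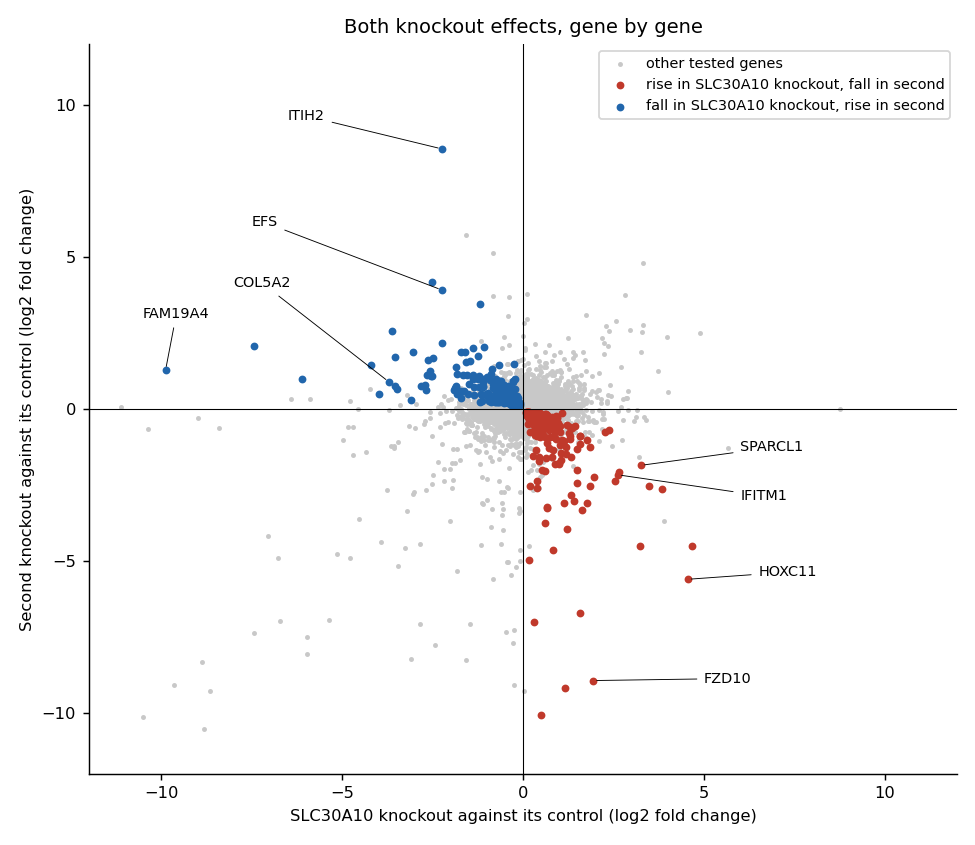
Each point is a tested gene with a name of its own (15105 genes), with the log2 fold change of the SLC30A10 knockout against its control on the x axis and that of the second knockout against its control on the y axis. The coloured points are 579 of the 591 opposite genes, 316 in the lower right and 263 in the upper left quadrant. The fitted values farthest from 0 belong to genes at or near 0 counts in a group and are no measure of size.

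The sets that lay apart differed from gene to gene. For 251 of the 591 genes the knockout sets differed from each other and the control sets did not, for 230 the knockout sets differed and the control sets differed in the contrary direction, and for 58 the control sets differed in the same direction as the knockout sets. For the other 52 genes (8.80%) only the control sets differed, so their opposite call rests on where the controls lay. Of those 52, 51 changed by under 1.5-fold in the smaller effect, and none was among the 67 genes of at least 2-fold. The background of these comparisons is high: the control sets differed at 39.3% of tested genes and the knockout sets at 50.5% (edgeR quasi-likelihood). These comparisons share libraries with the knockout effects and are not independent of them. Across the 591 genes the median absolute log2 distance was 0.63 between the knockout sets and 0.25 between the control sets, against 0.20 and 0.16 over all tested genes.

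**Figure D2:**
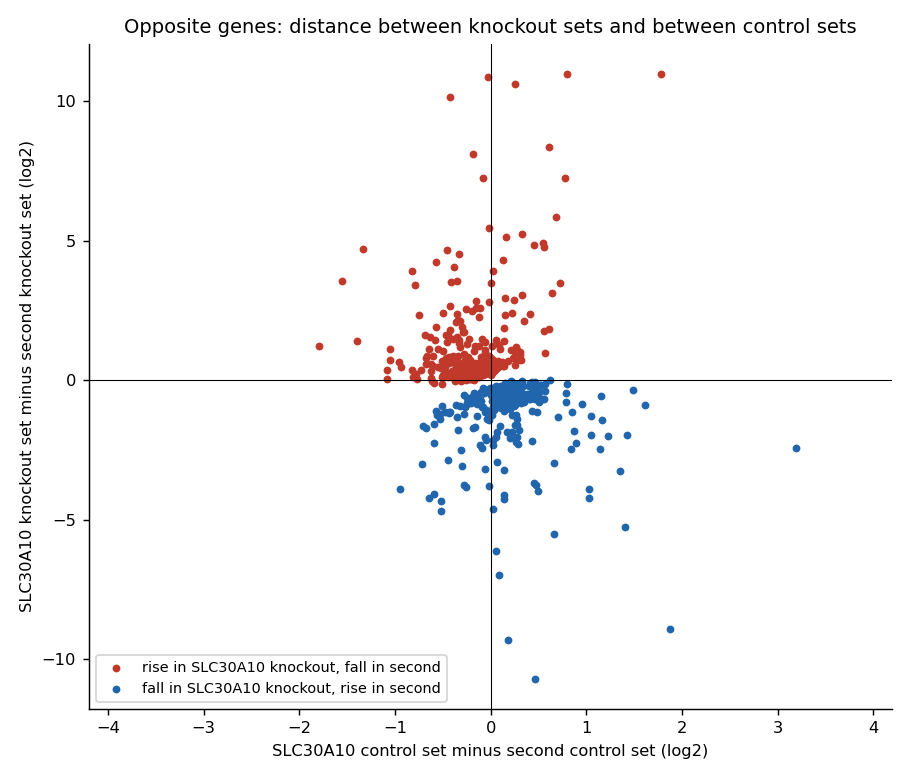
Each point is an opposite gene (579 with a name of their own), with the log2 distance between the control sets on the x axis and between the knockout sets on the y axis. Points above 0 on the y axis are mostly the genes that rose in the SLC30A10 knockout and fell in the second, and the spread along the y axis is wider than along the x axis (medians 0.63 and 0.25 in absolute value over all 591).

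As examples, the 10 genes with the largest smaller change were taken in each direction, from 198 and 126 whose mean reached 5 CPM and whose libraries overlapped in neither experiment. All 20 were still called opposite when any 1 of the 16 libraries was left out. The choice used the sizes and the separation of these same libraries, so that stability and the values that follow are a description.

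The rise in the SLC30A10 knockout with a fall in the second was led by IFITM1 (chr11:314040-315272, GRCh38.p14), an interferon-induced membrane protein that restricts virus entry. Its level was 23.7, 24.4, 28.3 and 23.5 CPM in the SLC30A10 knockout and 4.26, 4.25, 2.74 and 4.94 in its control. In the second experiment it was 1.18, 1.17, 1.45 and 1.51 CPM in the knockout and 6.42, 5.94, 6.09 and 5.59 in the control. The control sets thus lay between the knockout sets. The log2 fold changes were 2.62 ± 0.11 and -2.17 ± 0.17 (n = 4 libraries a group, SE from the fit of all 16 libraries). Their difference was 4.79 ± 0.20, with an adjusted p of 1.69e-16 by the edgeR quasi-likelihood test.

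ARHGAP4, encoded on the X chromosome, had 71.7, 64.8, 72.0 and 71.3 CPM in the SLC30A10 knockout against 26.9, 26.5, 21.3 and 25.3 in its control. In the second knockout it had 6.11, 5.40, 7.08 and 5.09 CPM against 28.2, 33.5, 33.4 and 32.3. The groups were separate in both experiments. PTPN3, a cytoplasmic tyrosine phosphatase, followed the same order, with 27.6, 25.2, 25.3 and 24.2 CPM with SLC30A10 deleted, 1.25, 1.04, 1.63 and 1.27 in the second knockout, and 8.38 to 10.9 CPM over the 8 control libraries. For PTPN3 the control sets were not called different (log2 difference 0.13, adjusted p 0.268, edgeR quasi-likelihood), and the effects were 1.33 ± 0.08 and -2.83 ± 0.14 on the log2 scale.

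BOK, a pro-apoptotic member of the BCL2 family, changed by 1.18 ± 0.07 and -1.50 ± 0.09 on the log2 scale (SE). APOE, the lipid-carrying apolipoprotein, changed by 1.02 ± 0.08 and -1.17 ± 0.10, with 25.7 to 33.7 CPM in the SLC30A10 knockout, 5.02 to 6.06 in the second knockout and 11.6 to 15.4 in the controls. MYRIP, a protein that links secretory granules to myosin, changed by 0.99 ± 0.07 and -1.83 ± 0.09. LPPR5, a plasma membrane protein of the lipid phosphatase-related family, changed by 1.06 ± 0.12 and -1.02 ± 0.13.

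FZD10, a Frizzled receptor for Wnt ligands, had 12.3, 13.4, 14.4 and 16.1 CPM in the SLC30A10 knockout, 3.41, 3.82, 3.29 and 4.15 in its control and 3.27 to 4.22 in the second control set. All 4 libraries of the second knockout held 0 counts, so FZD10 was at least 19.96-fold lower there, computed against a floor of 3 counts per library. FZD10-AS1, the divergent transcript next to FZD10, was likewise at 0 in the second knockout (at least 23.8-fold lower) and rose by 1.17 ± 0.12 (SE) in the SLC30A10 knockout. The use of strand in counting is not given in the sources used here, so reads of this pair may not be fully separate.

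SPARCL1, a secreted matrix protein related to SPARC, is an example where the controls differed too. It had 17.1, 17.7, 17.5 and 17.9 CPM in the SLC30A10 knockout against 1.71, 1.58, 2.13 and 1.89 in its control. In the second experiment it had 0.935, 0.797, 2.00 and 2.18 CPM in the knockout against 5.08, 5.52, 5.42 and 5.53. The second knockout therefore reached the level of the SLC30A10 control, and the control sets differed by -1.56 ± 0.17 (log2, SE).

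**Figure D3:**
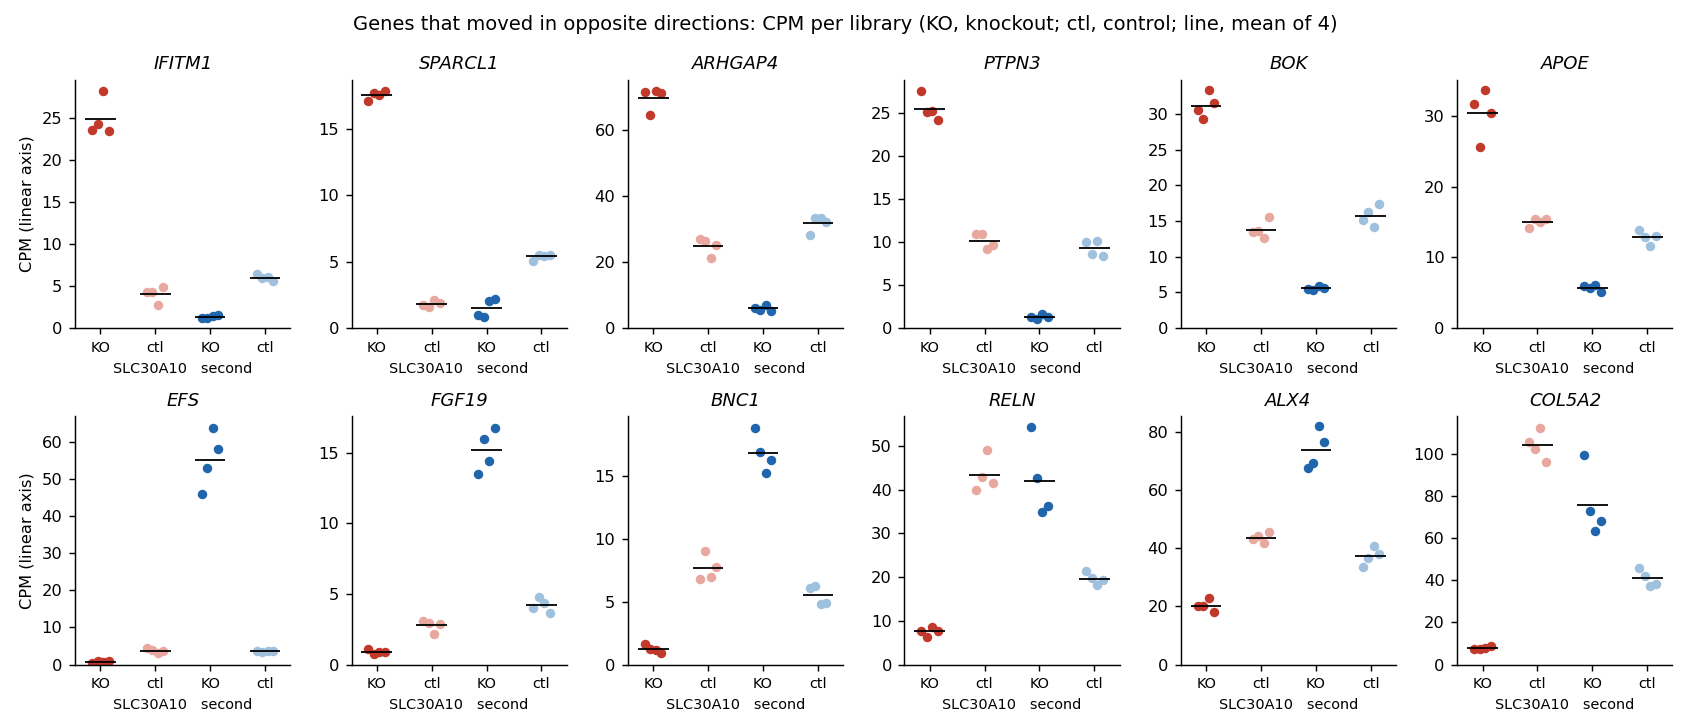
CPM of 12 opposite genes in each library (linear axis from 0), with the 4 groups on the x axis and a line at the mean of each group of 4. In the upper 6 genes the SLC30A10 knockout is highest and the second knockout lowest on average, with both controls between except that the SLC30A10 control of SPARCL1 overlaps the second knockout; in the lower 6 the SLC30A10 knockout is lowest.

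In the other direction, EFS (chr14:23356406-23365172), an adaptor protein of the CAS family that is bound by SRC-family kinases, had 0.497, 1.06, 0.674 and 0.934 CPM in the SLC30A10 knockout and 4.57, 3.82, 3.17 and 3.60 in its control. It had 46.1, 52.9, 63.7 and 58.1 CPM in the second knockout and 3.61, 3.52, 3.74 and 3.77 in its control. The control sets lay at the same level (log2 difference 0.05 ± 0.16, SE), and the effects were -2.25 ± 0.22 and 3.91 ± 0.11. FGF19, a secreted growth factor, had 0.746 to 1.12 CPM in the SLC30A10 knockout, 2.20 to 4.79 over the 8 control libraries and 13.5, 16, 14.4 and 16.8 in the second knockout. BNC1, a zinc finger transcription factor of epithelial and germ cells, had 0.934 to 1.62 CPM in the SLC30A10 knockout, 6.82 to 9.05 in its control, 15.2 to 18.8 in the second knockout and 4.82 to 6.24 in its control.

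ALX4, a homeobox factor of limb and skull development, had 20.2, 20.1, 22.7 and 17.9 CPM in the SLC30A10 knockout against 43.2, 44.2, 41.7 and 45.4, and 67.6, 69.3, 82.0 and 76.3 in the second knockout against 33.6, 36.6, 40.6 and 38.1. These are log2 changes of -1.11 ± 0.07 and 0.99 ± 0.07 (SE), of nearly equal size. HHIP, a decoy receptor of Hedgehog ligands, changed by -1.59 ± 0.26 and 1.55 ± 0.22, with a wide range of 5.69 to 18 CPM in the second knockout. HRASLS, a phospholipase of the HRAS-like suppressor family, changed by -1.33 ± 0.13 and 1.02 ± 0.10, and CHN2, a Rac GTPase-activating protein, by -1.24 ± 0.20 and 0.97 ± 0.15.

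RELN, the secreted glycoprotein reelin, had 7.58, 6.40, 8.58 and 7.78 CPM in the SLC30A10 knockout against 39.96, 42.9, 49.0 and 41.5, and 54.3, 42.6, 34.9 and 36.1 in the second knockout against 21.3, 19.8, 18.1 and 19.3. COL5A2, a fibrillar collagen chain, had 7.40, 7.58, 7.97 and 8.78 CPM against 105, 102, 112 and 96.3, and 99.5, 73.0, 63.2 and 67.9 in the second knockout against 45.9, 42.1, 37.1 and 38.3. For both genes the second knockout lay near the SLC30A10 control, and the control sets differed by 1.14 ± 0.10 and 1.35 ± 0.09 (log2, SE). FAM19A4, a secreted chemokine-like protein, had 0 counts in all SLC30A10 knockout libraries and was at least 38.5-fold lower than its control, while it rose by 1.28 ± 0.13 in the second knockout. ITIH2, a secreted protein that binds hyaluronan, rose to 92.0 to 98.0 CPM in the second knockout from 0.182 to 0.362 in its control, but its SLC30A10 libraries were near the floor and overlapped, at 0.0613 to 0.374 and 0.121 to 1.77 CPM.

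The targets of ATF4 were taken from a list of 38 genes, 35 of them tested. In the SLC30A10 knockout 14 fell and 1 rose, where 20.2% and 21.2% of all tested genes fell and rose. In the second knockout 21 rose and 1 fell, where 6.67% and 7.03% of all tested genes did. The difference of the effects passed for 27 members, 26 lower and 1 higher, against 14.6% and 16.7% of all tested genes. Median log2 changes were -0.29 for SLC30A10, 0.35 for the second knockout and -0.71 for the difference, where the medians over all tested genes were -0.0048, -0.0024 and -0.0045. Between the control sets 6 members were higher and 10 lower in the SLC30A10 control, 45.7% of the list against 39.3% of all tested genes, with a median log2 distance of -0.07 and single distances from -2.74 to 0.57. The members called opposite were 9 (25.7%, against 3.8% of all tested genes). All fell in the SLC30A10 knockout: ASNS, SLC7A5, SLC3A2, PSAT1, PHGDH, PSPH, SHMT2, SLC7A1 and MTHFD1L.

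ASNS, the enzyme that makes asparagine, had 104, 97.1, 95.2 and 103 CPM in the SLC30A10 knockout against 178, 179, 167 and 188 in its control. In the second experiment it had 270, 272, 135 and 364 CPM in the knockout against 162, 181, 141 and 105 in the control. The SLC30A10 groups were separate, whereas replicate 3 of the second knockout lay inside the range of its control. The log2 fold changes were -0.83 ± 0.17 and 0.82 ± 0.17 (SE), and the difference of -1.65 ± 0.24 had an adjusted p of 4.60e-06 (edgeR quasi-likelihood, Benjamini-Hochberg). All 4 groups share 1 estimate of the spread in this fit. The SD of ASNS was 4.42 and 8.61 CPM in the SLC30A10 knockout and control, and 94.4 and 32.5 in the second knockout and control. The SE of either effect thus does not show the spread of its own experiment. All 591 opposite genes passed for the difference. ASNS was picked by its 2 single effects, so this p-value is a description and no further support.

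SLC7A5 and SLC3A2 form the plasma membrane exchanger of large neutral amino acids, and SLC7A1 takes up cationic amino acids. SLC7A5 had 205, 193, 224 and 217 CPM in the SLC30A10 knockout against 430, 471, 513 and 441, and 436, 474, 317 and 613 in the second knockout against 322, 385, 337 and 283. Its effects were -1.14 ± 0.12 and 0.47 ± 0.11 (log2, SE). SLC7A5 lies in a stretch at the end of chromosome 16 whose 87 tested genes had median log2 changes of -0.56 in the first and -0.01 in the second experiment, and the part of that stretch in its fall was not tested. Its partner SLC3A2, on chromosome 11, changed by -0.67 ± 0.10 and 0.39 ± 0.10, and SLC7A1 on chromosome 13 by -0.33 ± 0.10 and 0.35 ± 0.10.

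PHGDH, PSAT1 and PSPH, which catalyse the successive steps from a glycolytic intermediate to serine, were 3 of the 9 opposite members. They changed by -0.42 ± 0.08, -0.52 ± 0.13 and -0.34 ± 0.07 in the SLC30A10 knockout and 0.33 ± 0.08, 0.53 ± 0.13 and 0.22 ± 0.07 in the second (log2, SE). SHMT2 and MTHFD1L, enzymes of mitochondrial one-carbon metabolism downstream of serine, changed by -0.21 ± 0.06 and -0.20 ± 0.06 and by 0.27 ± 0.06 and 0.28 ± 0.06. For MTHFD1L the knockout sets did not pass against each other (log2 distance -0.05, adjusted p 0.450, edgeR quasi-likelihood), so its call rests on the controls. ATF4 itself, which was no member of the list and was looked at after these values were seen, fell in the SLC30A10 knockout by 0.65 ± 0.09. Its change in the second knockout was 0.20 ± 0.09 (adjusted p 0.128, edgeR quasi-likelihood).

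CHAC1, an ATF4 target that degrades glutathione, was the only member whose difference passed in the higher direction. It had 3.48 to 4.92 CPM in the SLC30A10 knockout and 4.39 to 5.55 in its control, which overlapped. In the second experiment it had 1.18, 0.675, 0.727 and 0.969 CPM in the knockout against 37.5, 43.8, 36.3 and 14.8 in the control, a log2 change of -5.21 ± 0.29 (SE). It was thus the 1 target that fell in the second knockout.

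Libraries of the second experiment were spread along these genes. Of the 35 tested targets, 32 were highest among the second knockout libraries in replicate 4 and 29 were lowest in replicate 3, and 31 were lowest among the second control libraries in replicate 4. Their summed level was 4026 to 6983 CPM in the second knockout and 3703 to 4700 in its control, which overlapped, and 3327 to 3385 CPM in the SLC30A10 knockout against 4143 to 4349 in its control, which did not. Without replicate 4 of the second knockout 12 targets rose there in place of 21, without replicate 4 of its control 13 did, and without replicate 3 of the knockout 28 did. The fall in the SLC30A10 knockout was called for 13 to 21 members whichever library was left out, and the difference for 23 to 30 in the lower direction. The fit shares 1 estimate of the spread over all groups, and the 21 came without replicate 4 of the second knockout. The part of the spread between libraries in the result of the second knockout was not tested further.

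**Figure D4:**
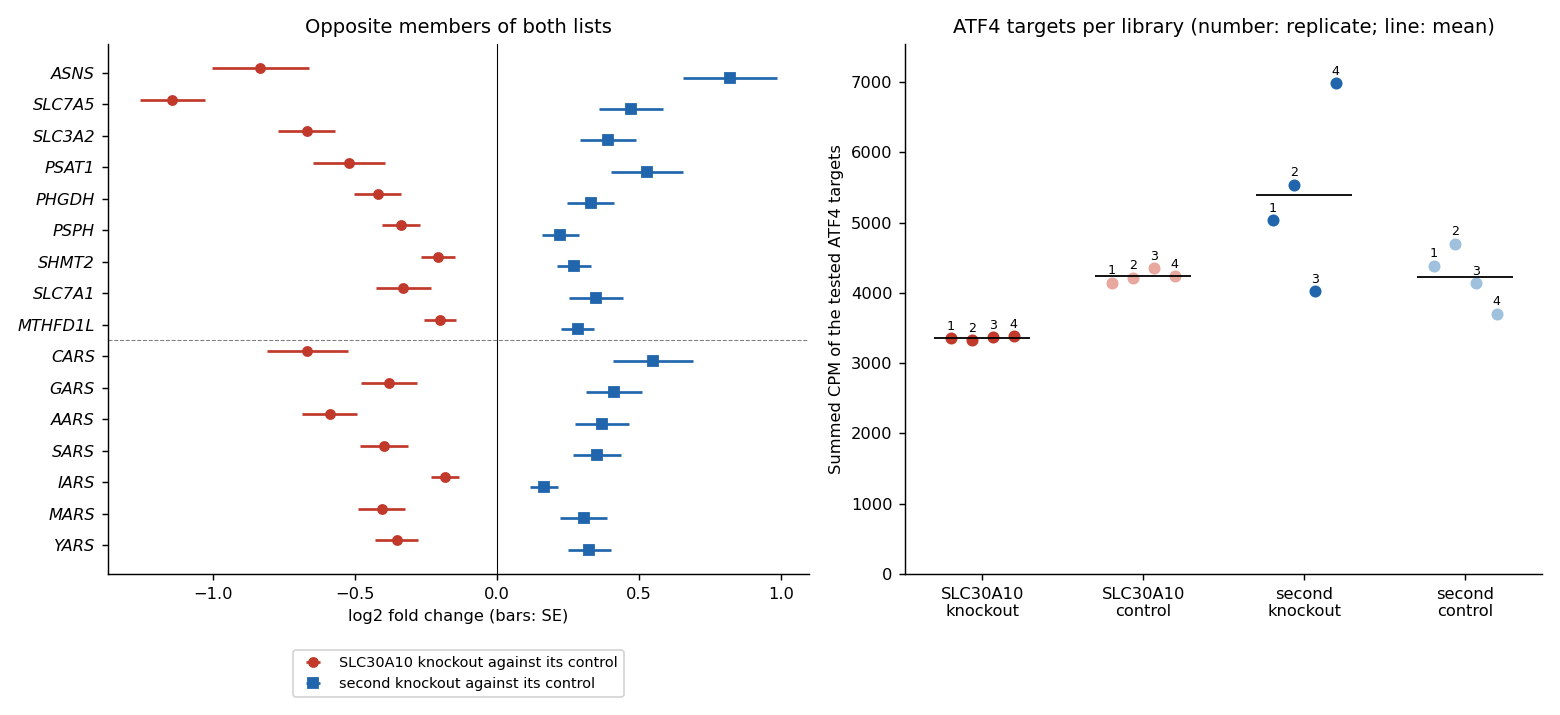
Left, log2 fold changes with SE of the 16 opposite members of the ATF4 target list (above the dashed line) and the aminoacyl-tRNA synthetase list (below it), with the SLC30A10 knockout at negative and the second knockout at positive values throughout. Right, summed CPM of the 35 tested ATF4 targets in each library (axis from 0, numbers give the replicate, lines the group mean): the SLC30A10 knockout lies at 3327 to 3385, under every other library, and replicate 3 of the second knockout lies among the controls.

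Promoter sequence was examined because ATF4 binds with C/EBP proteins to a composite element that holds the letters TGATGNAA. Those letters were searched on both strands of the 250 bases upstream of the start that the RefSeq table lists first for each gene, in RefSeq sequence of GRCh38.p14, for which overlapping matches were allowed. They were found in 3.19% of all 27305 promoters and in 1.31% of the 11130 tested genes with a promoter. Over all tested members with a promoter, 4 of 28 ATF4 targets (14.3%) and 2 of 12 synthetases (16.7%) held a match. Of the 16 opposite members of both lists, 10 had a promoter in the table and 4 of those held a match. Among the 192 other genes with a promoter that fell in the SLC30A10 knockout and rose in the second, 3 (1.56%) did. The first list was made of ATF4 targets, so these shares cannot test a part of ATF4 in the opposite movement. These 4 matches are shown because they are the ones found among the opposite members of both lists. For IARS and MTHFD1L the knockout sets did not pass against each other. Each line reads 5′ to 3′ on the strand of the gene, with the match in capitals, and a match is a description of letters and not of binding. ASNS is chr7:97872449-97872496 on the minus strand with the match 68 bases before the start, AARS is chr16:70289666-70289713 on the minus strand (187 bases), IARS is chr9:92293698-92293730 on the minus strand (13 bases) and MTHFD1L is chr6:150866337-150866384 on the plus strand (129 bases). The windows of ASNS and MTHFD1L belong to starts inside the listed spans of these genes, chr7:97851677-97928441 and chr6:150865702-151101887, and not to their outermost starts. In AARS and IARS the letters lie on the strand opposite to the gene.
ASNS: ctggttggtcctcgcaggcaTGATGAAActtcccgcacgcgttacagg
AARS: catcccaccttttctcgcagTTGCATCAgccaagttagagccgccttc
IARS: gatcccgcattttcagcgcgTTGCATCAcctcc
MTHFD1L: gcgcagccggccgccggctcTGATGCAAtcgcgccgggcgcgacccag

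Cytosolic aminoacyl-tRNA synthetases, which load amino acids onto tRNAs, changed in the same directions. Of 19 tested, 10 (52.6%) fell and 0 rose in the SLC30A10 knockout, where 20.2% of all tested genes fell. In the second, 7 (36.8%) rose and 0 fell, against 6.67% of all tested genes that rose. The effects differed for 11 (57.9%), all lower, against 14.6% of all tested genes. The 7 opposite members (36.8%, against 3.8% of all tested genes) were CARS, GARS, AARS, SARS, IARS, MARS and YARS. CARS, the cysteine enzyme, had 30.6, 31.8, 28.4 and 29.9 CPM in the SLC30A10 knockout against 45.7, 50.7, 48.5 and 47.1, and 50.6, 46.8, 28.5 and 65.4 in the second knockout against 35.2, 37.8, 32.8 and 25.1. AARS, the alanine enzyme, had 196, 186, 196 and 200 CPM against 286, 299, 285 and 302, and 329, 331, 230 and 414 against 258, 281, 245 and 225. As for ASNS, the SLC30A10 groups were separate and replicate 3 of the second knockout lay within the range of its controls.

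The synthetases also differed between the control sets, where 14 were higher and 1 lower in the SLC30A10 control (18.5% and 20.8% of all tested genes). Their median distance was 0.25 between the control sets and -0.10 between the knockout sets, and the median difference was -0.31. With the control sets exchanged, 6 members were higher and 2 lower in the difference and the median turned to 0.07, where 8394 of all 15569 tested genes passed. With both control sets pooled 4 were higher and 8 lower. Pooling turns the difference into the distance between the knockout sets, which passed for 25.3% (higher) and 25.2% (lower) of all tested genes. For IARS and YARS the knockout sets did not pass against each other, with log2 distances of -0.02 ± 0.05 and -0.17 ± 0.08 (SE). Without replicate 4 of the second knockout, or without replicate 4 of its control, 5 of the 7 opposite members remained called, and IARS and MARS did not.

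Cytosolic ribosomal proteins changed in the other direction, with more members higher in the difference than in any other of the lists. Of 77 tested members, 65 (84.4%) rose and 1 fell in the SLC30A10 knockout, where 21.2% of all tested genes rose. In the second, 11 (14.3%) fell and 1 rose, where 7.03% of all tested genes fell. The effects differed for 61 (79.2%), all higher, against 16.7% of all tested genes. Single changes were small, with medians of 0.20 for SLC30A10, -0.04 for the second knockout and 0.25 for the difference on the log2 scale. The control sets differed at 65 members (84.4%, against 39.3% of all tested genes). Of these, 62 were lower in the SLC30A10 control (80.5% of the list, against 20.8% of all tested genes). The median distance was -0.20 between the control sets and 0.05 between the knockout sets. In sums, the SLC30A10 control held 50244 to 53261 CPM of these mRNAs, while the SLC30A10 knockout held 58304 to 61637, the second knockout 57302 to 58648 and the second control 56397 to 63753. Thus the SLC30A10 control was the group that lay apart, and the other 3 overlapped. When the control sets were exchanged, the median difference of this list turned to -0.15.

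The opposite ribosomal members were 10, all rising in the SLC30A10 knockout, and for 6 of them only the control sets differed. RPL23A was the exception in size, with 339, 331, 324 and 332 CPM in the SLC30A10 knockout against 299, 303, 313 and 290, and 233, 219, 238 and 230 in the second knockout against 338, 324, 308 and 319. The second knockout was here the group apart, by -0.48 ± 0.04 (log2, SE), and the SLC30A10 effect was 0.14 ± 0.04. RPS12, RPS3A and RPS27 changed by 0.15 ± 0.04, 0.37 ± 0.04 and 0.31 ± 0.06 in the SLC30A10 knockout and by -0.31 ± 0.04, -0.16 ± 0.04 and -0.18 ± 0.06 in the second. Ribosomal protein genes have many processed pseudogenes with which reads can be shared. Leaving out 1 library left 5 to 11 opposite members.

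**Figure D5:**
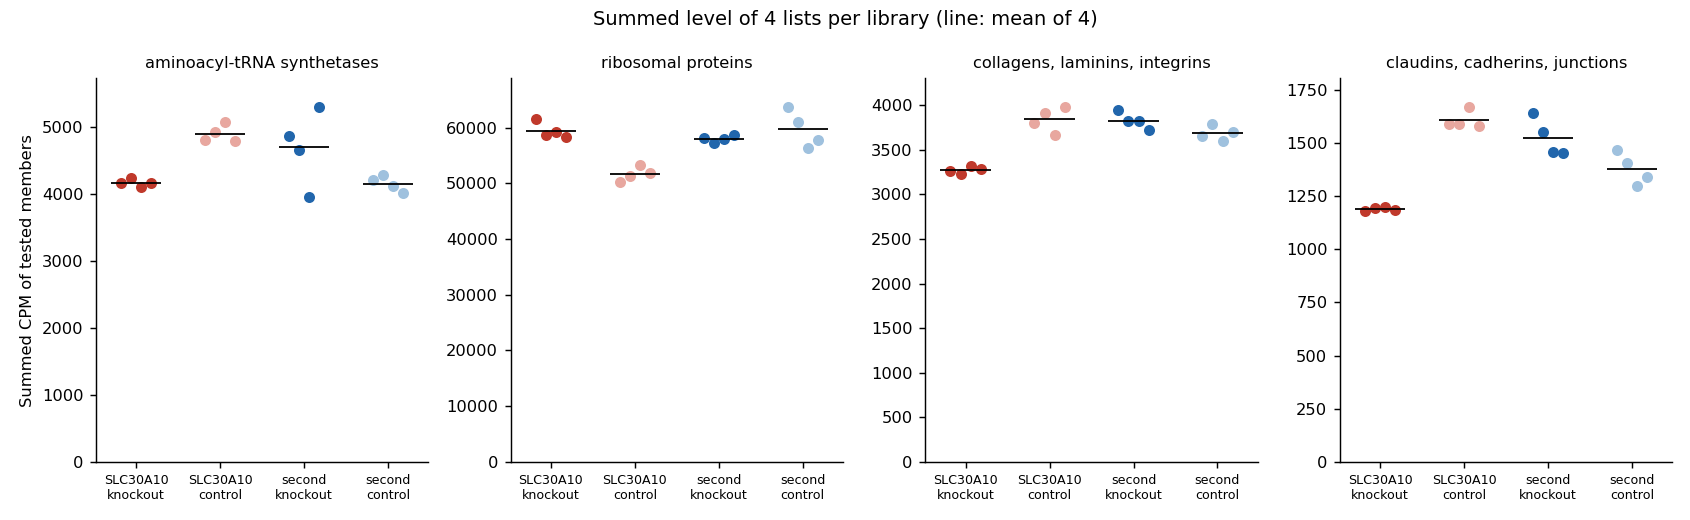
Summed CPM of the tested members of 4 lists in each library (axes from 0, lines at group means, libraries in the order of replicates 1 to 4). For ribosomal proteins the SLC30A10 control is the low group (50244 to 53261 CPM); for the matrix and junction lists the SLC30A10 knockout is the low group, and for synthetases replicate 3 of the second knockout lies under the other 3 libraries of its group.

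Genes of collagens, laminins, integrins and other matrix proteins fell more often than they rose in the SLC30A10 knockout, 24 (41.4%) against 11 of 58 tested, where 20.2% of all tested genes fell and 21.2% rose. In the second, 16 (27.6%) rose and 5 (8.62%) fell, where 6.67% and 7.03% of all tested genes did. The difference was lower for 21 (36.2%) against 14.6% of all tested genes, and higher for 10 (17.2%), near the 16.7% of all tested genes. Between the control sets 17 were higher and 18 lower in the SLC30A10 control, 60.3% of the list against 39.3% of all tested genes. The 8 opposite members (13.8%, against 3.8% of all tested genes) all fell in the SLC30A10 knockout. They were COL5A2, described above, COL21A1, COL12A1, COL4A5, COL4A6, LAMB1, ITGB8 and VCAN. For each of them the knockout sets differed from each other, and for 5 of the 8 the control sets differed too, in the contrary direction. COL4A6, a basement membrane collagen chain encoded on the X chromosome, had 35.5, 34.0, 37.7 and 36 CPM in the SLC30A10 knockout against 46.3, 47.8, 46.2 and 49.3, and 48.3, 40.8, 39.0 and 40.2 in the second knockout against 33.9, 34.7, 32.6 and 34.2. LAMB1, a laminin chain of basement membranes, changed by -0.65 and 0.25 on the log2 scale, and ITGB8, an integrin that activates latent TGF-beta, by -0.59 and 0.27. COL12A1 and COL21A1 were near the detection floor, with at most 2.54 CPM in any library, and COL21A1 was not called opposite without any 1 of 4 SLC30A10 libraries. The summed level of the list was 3225 to 3324 CPM in the SLC30A10 knockout against 3663 to 3983, and 3718 to 3949 in the second knockout against 3596 to 3794, which overlapped.

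Of 34 tested claudins, cadherins, junction proteins and related markers, 13 (38.2%) fell and 5 (14.7%) rose in the SLC30A10 knockout, where 20.2% and 21.2% of all tested genes did. In the second, 9 (26.5%) rose and 4 (11.8%) fell, where 6.67% and 7.03% of all tested genes did. In the difference 14 (41.2%) were lower and 5 (14.7%) higher, against 14.6% and 16.7% of all tested genes, with a median of -0.20. With the control sets exchanged, 8 were higher and 11 lower and the median turned to 0.04. Of all 15569 tested genes, 4054 were higher and 4340 lower in that setting. CDH3, or P-cadherin, had 2.05, 1.31, 1.59 and 1.31 CPM in the SLC30A10 knockout against 10.4, 11.8, 8.96 and 13.1, and 23.2, 20.3, 21.7 and 24.2 in the second knockout against 11, 14.1, 14.8 and 13.1. Its control sets overlapped, and its effects were -2.82 ± 0.16 and 0.76 ± 0.10 (log2, SE). CDH2, or N-cadherin, and VIM, the intermediate filament vimentin, changed by -0.78 ± 0.05 and -0.82 ± 0.07 in the SLC30A10 knockout and by 0.22 ± 0.05 and 0.26 ± 0.07 in the second, with overlapping libraries in the second experiment. Both are markers of mesenchymal cells, but other such markers took other courses. The transcription factors ZEB1, ZEB2 and TWIST1, also on the list, changed by 0.02, 0.03 and 0.02 in the SLC30A10 knockout, where none passed the test, and rose by 0.37, 0.16 and 0.23 in the second. THY1, a surface glycoprotein of fibroblasts, rose in both, by 1.23 ± 0.17 and 2.33 ± 0.21, and the transcription factor TWIST2 rose by 1.41 ± 0.17 and fell by 3.02 ± 0.29; both are outside the list and were looked at after their values were seen. CDH18 was opposite in the same sense at no more than 1.17 CPM. F11R, the junctional adhesion molecule A, went the other way, by 0.44 ± 0.06 and -0.27 ± 0.06.

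Axon guidance genes, which encode secreted cues and their receptors, were more often higher than lower in the difference. Of 61 tested, 24 (39.3%) rose and 13 (21.3%) fell in the SLC30A10 knockout, where 21.2% and 20.2% of all tested genes did, and 5 (8.20%) rose and 15 (24.6%) fell in the second, against 6.67% and 7.03%. The difference was higher for 24 (39.3%) and lower for 9 (14.8%), against 16.7% and 14.6%, with a median of 0.24. With the control sets exchanged it was higher for 20 and lower for 22, with a median of 0.03. In that setting it was higher for 4054 and lower for 4340 of all 15569 tested genes. SLIT3, a secreted repellent, had 17.0, 16.8, 20.6 and 19.9 CPM in the SLC30A10 knockout against 3.78, 4.43, 3.29 and 3.90, and 4.24, 7.73, 9.39 and 10.4 in the second knockout against 12.8, 13.6, 14.1 and 12.9. The control sets of SLIT3 lay apart by -1.79 ± 0.17 (log2, SE), more than the knockout sets at 1.22 ± 0.14. NEO1, the netrin receptor neogenin, changed by 0.27 ± 0.05 and -0.44 ± 0.05. The ephrin receptors EPHB1 and EPHA6, the semaphorin receptor PLXNA2 and the semaphorin SEMA3G were opposite in the same sense at mean levels of 0.897 to 2.05 CPM. ROBO3, a receptor of the Roundabout family, was the 1 member that fell in the SLC30A10 knockout (-0.27 ± 0.11) and rose in the second (0.35 ± 0.10).

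In the Wnt list, 13 of 47 tested members (27.7%) were higher and 5 (10.6%) lower in the difference, together 38.3% of the list against 31.3% of all tested genes. With the control sets exchanged, 11 were higher and 16 lower, and the median turned from 0.07 to -0.12. That exchange called 4054 of all 15569 tested genes higher and 4340 lower. Besides FZD10, the secreted Wnt inhibitor SFRP1 rose by 0.79 ± 0.06 in the SLC30A10 knockout and fell by 0.25 ± 0.07 in the second (log2, SE), with 37.4 to 42.4, 21.2 to 23.6, 17.7 to 22.0 and 23.3 to 23.9 CPM in the SLC30A10 knockout, its control, the second knockout and its control. Its second-knockout call was lost without replicate 2 of that knockout. RSPO3, a secreted enhancer of Wnt signalling, was opposite in that sense at no more than 1.47 CPM. The receptor FZD8 and the transcription factor TCF7L2 did the reverse, with -0.39 ± 0.11 and -0.43 ± 0.07 against 0.41 ± 0.11 and 0.23 ± 0.07.

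Among the HOX clusters, the homeobox genes that specify body position, 17 of 33 tested members (51.5%, against 31.3% of all tested genes) differed between the effects, 10 higher and 7 lower, and HOXC11 and HOXC8 were opposite to each other within 1 cluster. HOXC11 had 16.3, 13.9, 14.2 and 16.1 CPM in the SLC30A10 knockout and 0.427 to 0.789 in its control, a rise of 4.55 ± 0.18 (log2, SE). In the second experiment it was at 0 counts in all knockout libraries and 0.0603 to 0.486 CPM in the control, so its fall there was at least 1.95-fold. HOXC8 had 11.4, 11.9, 11.5 and 11.4 CPM in the SLC30A10 knockout against 18.5, 19.4, 15.9 and 18.8, and 25.6, 25.4, 25.5 and 25.5 in the second knockout against 16.8, 17.3, 20.1 and 18.3. Its control sets did not pass against each other (log2 distance -0.0038, adjusted p 0.971, edgeR quasi-likelihood), and its effects were -0.65 ± 0.08 and 0.49 ± 0.07.

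Of 433 tested ZNF zinc finger genes, many of which encode KRAB-type repressors, 50 were higher and 67 lower in the difference, and 3 and 9 were opposite in each sense. The opposite members are 2.77% of the list, and the share that differed is also under that of all tested genes (3.8% and 31.3%), so the genes named here are single members and not a result about the list. ZNF518B had 20.9, 26.2, 22.8 and 22.7 CPM with SLC30A10 deleted, 1.31, 1.23, 1.70 and 1.82 in the second knockout and 13.7 to 15.8 over the 8 control libraries. ZNF544 did the reverse, with 0.559 to 0.994 CPM in the SLC30A10 knockout against 4.49 to 5.18, and 5.67 to 7.69 in the second knockout against 2.61 to 3.46.

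Single members of other lists were opposite as well. CTSC, a lysosomal cysteine protease, had 24.7, 25.7, 29.3 and 28.5 CPM in the SLC30A10 knockout against 55.6, 60.6, 59.1 and 58.6, and 90.9, 82.0, 78.2 and 78.2 in the second knockout against 49.7, 48.4, 46.6 and 49.2. NQO1, a quinone reductase and NRF2 target, changed by -1.86 ± 0.10 and 0.73 ± 0.09 (log2, SE), and its control sets differed by 1.16 ± 0.09. Only NQO1 and ME1 of the 29 tested NRF2 and antioxidant genes were opposite (6.90%, against 3.8% of all tested genes). The difference passed for 9 (31.0%), near the 31.3% of all tested genes. ASAH1, the lysosomal acid ceramidase, changed by 1.06 ± 0.04 and -0.15 ± 0.04 and lies in a stretch at the start of chromosome 8 whose 76 genes had a median rise of 0.97 in the SLC30A10 knockout. FTL, the light chain of the iron store ferritin, changed by 0.17 ± 0.05 and -0.29 ± 0.05. FTL and SLC39A6 were the opposite members among 38 tested metal transport genes (5.26%, against 3.8% of all tested genes). GRB10, an imprinted adaptor of insulin signalling, changed by -0.23 ± 0.05 and 0.18 ± 0.05.

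Mitochondrial lists held opposite genes at shares on both sides of the 3.8% of all tested genes. The mitochondrial RNA granule and RNA processing list, complex I, and complexes II to V had 0 among 41, 43 and 39 tested members, and the difference passed for 5, 11 and 11 of them, which are 12.2%, 25.6% and 28.2% against 31.3% of all tested genes. Among mitochondrial ribosomal proteins 2 of 78 (2.56%) were opposite, MRPL18 and MRPL19, with 16 (20.5%) differing. SLC25 carriers, which move metabolites across the inner membrane, held 3 opposite genes of 42 (7.14%) and differed at 13 (31.0%), near the share of all tested genes. Of these 3, SLC25A16 was not called opposite without any 1 of 10 libraries, and SLC25A39 without any 1 of 4. Import, chaperone and protease genes held 2 of 34 (5.88%) and differed at 14 (41.2%), 6 higher and 8 lower. The adenine nucleotide carrier SLC25A5 had 599, 599, 610 and 604 CPM in the SLC30A10 knockout against 420, 432, 454 and 436, and 408, 386, 408 and 413 in the second knockout against 456, 452, 440 and 451. It is encoded on the X chromosome. The matrix protease LONP1 and the import motor anchor TIMM44 did the reverse, with -0.32 ± 0.04 and -0.25 ± 0.07 against 0.16 ± 0.04 and 0.28 ± 0.08 (log2, SE). For TIMM44 the knockout sets did not pass against each other.

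Cholesterol synthesis differed between the knockouts without opposite calls. Of 25 tested genes, 21 (84%) fell and 2 (8%) rose in the SLC30A10 knockout, where 20.2% and 21.2% of all tested genes did. In the second, 5 (20%) fell and 0 rose, where 7.03% and 6.67% of all tested genes did. In the difference 14 (56%) were lower and 3 (12%) higher, against 14.6% and 16.7% of all tested genes. HMGCS1, which makes the precursor of the mevalonate pathway, changed by -0.64 ± 0.08 and -0.03 ± 0.08 (log2, SE), a difference of -0.60 with an adjusted p of 9.47e-05 by edgeR quasi-likelihood. MVD, which decarboxylates mevalonate diphosphate, changed by -1.11 ± 0.07 and 0.08 ± 0.07, inside the falling stretch of chromosome 16. FDFT1, or squalene synthase, rose by 0.84 ± 0.05 inside the rising stretch of chromosome 8. HMGCS1, MVD and FDFT1 were picked after their values were seen. Interferon and antigen presentation genes differed at 9 of 28 (32.1%), near the 31.3% of all tested genes. Next to IFITM1 the rise of HLA-B (0.23 ± 0.05) and the fall of IFIT1 (-0.34 ± 0.12) in the SLC30A10 knockout faced -0.18 ± 0.05 and 0.52 ± 0.11 in the second.

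Opposite genes were placed along the chromosomes in RefSeq order, which could be done for 91.1% of the tested genes. They made up 3.99% of all placed genes and 7.83% of 498 on the X chromosome, where 32 rose and 7 fell in the SLC30A10 knockout. Among autosomes the share ran from 1.05% on chromosome 20 to 7.29% on chromosome 18, with 6.39% on chromosome 6. The X chromosome as a whole had median log2 changes of 0.36 in the first and -0.01 in the second experiment. In the difference 295 of its 498 genes were higher and 24 lower, where 16.7% and 14.6% of all tested genes were. ARHGAP4 and SLC25A5 lie on that chromosome, and the part of this shift in their calls was not tested. Without the genes of 4 chromosome stretches that moved together, 544 opposite genes remained.

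Of 83 opposite genes that were named by rule or belong to the ATF4 and synthetase lists, 59 stayed called in both experiments whichever library was left out, and 24 did not. Among those described, the call of MRPL19 was lost without 1 library, those of TIMM44, ASAH1, SLC7A1 and MARS without any 1 of 2 libraries, and those of ME1, GRB10, HLA-B, VIM and PSPH without any 1 of 3. IFIT1, IARS, COL21A1 and SLC25A39 lost theirs without any 1 of 4, RPS27 without any 1 of 6 and SLC39A6 and SLC25A16 without any 1 of 10. For MARS, SLC7A1 and TIMM44 the libraries were replicate 4 of the second knockout and replicate 4 of the second control set.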

How the data were processed

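Poly-A RNA of 16 HAP1 libraries was sequenced paired-end on a DNA nanoball platform, per the labels. The submitters' processing notes name HISAT2, featureCounts, DESeq2 and hg38/GRCh38; versions, annotation and use of strand are not given in the sources used here. The authors deposited whole-number read counts for 33121 gene entries, which were used as deposited. A second table of normalized values was not used. The gene deleted in the second knockout and 1 gene that the naming rule picked are not reported here.

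The analysis used edgeR 4.0.16 under R 4.3.3: expression filter (minimum count 10, minimum total 15; 15569 genes), TMM scaling, all 16 libraries, a mean for each group, no covariate, quasi-likelihood F tests, Benjamini-Hochberg adjustment over all tested genes and a threshold of 0.05. All replicate pairs differed beyond sampling noise (chi-square per degree of freedom 1.60 to 6.43). The common biological coefficient of variation was 0.0497. Reads carry no stated molecular identifiers, so floors of 3 counts cover counting error only. The procedure was tested on simulated data. Those counts were drawn with the same spread in all groups and without genes that moved together between libraries of a group. They thus do not cover the shared movement of ATF4 targets between libraries of the second experiment.

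Members, the 33 gene lists (32 with tested members) and rules were chosen with earlier results of these data known. Named were the 10 genes in each opposite direction with the largest smaller change (mean at least 5 CPM, no overlap of libraries), and up to 4 opposite members of each list with the largest smaller change; other genes named were picked after their values were seen. Numbered copies of a symbol and symbols turned into dates were tested but not named. Alternatives were other scalings, DESeq2 1.42.0, filters, thresholds, control sets pooled or exchanged, the replicate number as a block, each library left out, and, chosen after seeing the data, genes of 4 chromosome stretches left out.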

Additional observations from a re-analysis of the deposited data

Results flagged for a closer look

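The difference of the knockout effects passed the threshold for 4873 genes, tested as an interaction of deletion and experiment with edgeR's quasi-likelihood test (Benjamini-Hochberg over 15569 genes). Since the deletions differ by cell line and experiment, deletion and line cannot be told apart.

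For the named genes, 300 groups of 4 values were checked for a library far from the rest. In 19 of them the gap between the extreme library and its neighbour, as a share of the group's range, exceeded the Dixon limit for 4 values. About 1 in 20, or 15, would do so by chance. In the SLC30A10 knockout these were ARHGAP4 in replicate 2 (gap share 0.896), RPS27 in replicate 1 (0.832), GRB10 and SFRP1 in replicate 3 (0.856 and 0.878) and COL12A1 and CDH18 in replicate 4 (0.966 and 0.987). In the SLC30A10 control they were PSAT1 in replicate 3 (0.865) and SLC25A16 in replicate 4 (0.836). In the second knockout they were RSPO3 in replicate 1 (1.00, with 0 counts in the other 3), SLC25A39 and FADS3 in replicate 3 (0.855 and 0.875) and LONP1, SLC25A16 and PLXNA2 in replicate 4 (0.864, 0.844 and 0.894). In the second control set they were FADS3 in replicate 1 (0.859), LPPR5 and HHIP in replicate 2 (0.889 and 0.862), HOXC11 in replicate 3 (0.864) and SFRP1 in replicate 4 (0.836). CDH18, COL12A1, RSPO3, PLXNA2 and HOXC11 lay under 1 CPM in the group concerned.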

How the results depend on the processing

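The count of opposite genes was 539 to 671 under other scalings, DESeq2 and no filter, 512 with a mean count of at least 50, and 454 to 677 with 1 library left out; no opposite gene shared with these settings changed direction. It was 310 at an adjusted p under 0.01, 140 with at least 1.5-fold as well, 1322 with pooled controls (368 shared) and 2977 with control sets exchanged (263 shared, and 17 reversed). The difference of the effects was called for 1776 genes with at least 1.5-fold, 7856 with pooled and 8394 with exchanged controls, and 4442 to 5044 with 1 library left out. With pooled controls the control values cancel, so that difference is the distance between the knockout sets and no separate check. With at least 1.5-fold, 878 genes differed between the control sets and 1998 between the knockout sets, and 7 synthetases, 3 ribosomal proteins and 18 matrix genes in the difference; with pooled controls 25 ribosomal proteins did. With 1 library left out these were 5053 to 6301 for control sets, 7082 to 8148 for knockout sets, 24 to 31 ATF4 targets, 10 to 12 synthetases, 54 to 62 ribosomal proteins and 27 to 32 matrix genes.

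With control sets exchanged, the log2 difference reversed for TIMM44 (0.40), ME1 (0.13), RPS27 (-0.18), RPS3A (-0.17), RPS12 (-0.12), POLE (0.13), COL4A6 (0.25), SLIT3 (-0.57), HLA-B (-0.29) and F11R (-0.20). Of 2011 values of the difference for named genes over the settings, 1972 kept direction and call, 29 kept direction only and 10 reversed. These genes were picked for called effects of opposite sign, so their difference was large by choice and this count is a description. The opposite call is less firm, since 24 of 83 genes lost it in at least 1 fit with a library left out. Deviations of same-numbered libraries from their group means had correlations of -0.10 to 0.0099 in the first experiment and -0.050 to 0.18 in the second. In the second experiment replicates 1, 2 and 3 had 0.18, 0.082 and 0.068. Such weak values over all genes cannot decide whether the numbers pair the samples, and the labels state no pairing. With the replicate number as a block, 621 genes were opposite and 4882 passed for the difference. With library totals as scaling, 2311 genes were higher and 2575 lower in the difference, against 2597 and 2276. Genes under about 1 CPM rest on few counts, and changes there are the least precise.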
